A study of Mus musculus with 11 samples.

Results

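Genes expressed by macrophages and other leukocytes, 9 in all, were followed across 3 cell fractions sorted from mouse islets: *C1qa*, *C1qb*, *C1qc*, *Cd52*, *Lyz2*, *Ptprc*, *Csf1r*, *Adgre1* and *Cd68*. They were chosen by symbol, and all 9 were found among the 55401 rows of the count table and passed the filter on low counts together with 17424 genes in all. The fractions were sorted by FACS from chow-fed male C57BL6/J mice, 10 weeks old by the labels, that carried RIP-Cre, STOP-tdTomato and Nnat-EGFP. Cre was driven by the rat insulin promoter and marked beta cells with tdTomato, and eGFP was driven by the *Nnat* promoter of a transgene inherited from the father, so all 3 fractions came from animals with the same alleles. There were 3 libraries of non-beta cells (mice 1, 2 and 3), 4 of beta cells labelled NNAT-positive and 4 of beta cells labelled NNAT-negative (mice 1 to 4 each), and libraries with the same number came from 1 mouse. The sort used tdTomato, eGFP, DAPI to leave out dead cells and scatter to leave out doublets, with no leukocyte marker, so the non-beta fraction could hold any other cell of the dissociated islet. One passage of the study's text gives a younger age for the sorted cells.

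The islet holds resident macrophages beside its endocrine cells, and these take up debris, present antigen and respond to the growth factor CSF1. C1q, which starts the classical complement pathway, is built from the A, B and C chains encoded by *C1qa*, *C1qb* and *C1qc*, and tissue macrophages are a main source of all 3 chains. *Csf1r* encodes the receptor for CSF1 and IL-34, *Adgre1* encodes the macrophage surface receptor F4/80, *Cd68* encodes a glycoprotein of late endosomes and lysosomes, and *Lyz2* encodes lysozyme of myeloid cells. *Ptprc* encodes CD45, a phosphatase on the surface of nearly all leukocytes, and *Cd52* encodes a small lipid-anchored glycoprotein of leukocytes.

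Libraries held between 30420352 and 43238376 counts, and a floor of 3 counts was worth 0.0648 to 0.102 CPM, depending on the library (CPM are counts scaled to library size, with TMM factors). Within a fraction each library came from another mouse, and the mouse was a block in the fit. The edgeR tests thus measure how the differences between fractions vary from mouse to mouse. In 4 of 4 mice *Nnat* itself had a lower level in the labelled NNAT-positive library than in the labelled NNAT-negative one, with means of 61.0 and 93.8 CPM, which goes against the names. The study's own results table heads the beta fractions with the opposite names. The labels are kept here, and every direction between the beta fractions is one between libraries labelled in this way. The labelled NNAT-negative libraries of mice 1 and 2 stood apart in the number of genes with at least 1 count, 15723 and 15450, against 17565 to 21731 in the other 6 beta libraries. The 8 beta cell markers summed to between 181466 and 426655 CPM in beta and between 10544 and 26000 CPM in non-beta libraries, and the 4 alpha cell markers to between 119195 and 166785 CPM in non-beta libraries. Marker sums for other cells also differed between libraries, since acinar markers summed to 2416 CPM in the labelled NNAT-positive library of mouse 2 and to between 10.6 and 547 CPM in the other 7 beta libraries.

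The C1q genes lie side by side on the minus strand of chromosome 4 in GRCm38. *C1qb* occupies 136880129 to 136886187, *C1qc* 136889804 to 136893065 and *C1qa* 136895917 to 136898803, each protein-coding with 3 exons. The sequences before their starts are shown because *C1qb* and *C1qc* moved together across the fractions while *C1qa*, their immediate neighbour, moved far less, and *Lyz2* and *Cd68* are shown beside them as myeloid genes from other chromosomes. They are RefSeq promoter windows of GRCm38.p6, 5′ to 3′ on the minus strand and with any bases inside the gencode gene removed. Capitals mark AGGAAGT on either strand (ACTTCCT when read from the strand printed), which holds the GGAA core recognised by ETS-family factors such as PU.1.
C1qb, chr4:136886201-136886450: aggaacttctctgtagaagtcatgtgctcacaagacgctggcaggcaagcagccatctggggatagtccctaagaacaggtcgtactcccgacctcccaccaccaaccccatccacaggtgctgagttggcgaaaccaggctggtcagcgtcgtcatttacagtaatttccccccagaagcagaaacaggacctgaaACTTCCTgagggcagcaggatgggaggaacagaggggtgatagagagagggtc
C1qc, chr4:136893066-136893164: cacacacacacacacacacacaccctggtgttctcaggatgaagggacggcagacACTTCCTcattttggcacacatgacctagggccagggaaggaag
Lyz2, chr10:117282322-117282522: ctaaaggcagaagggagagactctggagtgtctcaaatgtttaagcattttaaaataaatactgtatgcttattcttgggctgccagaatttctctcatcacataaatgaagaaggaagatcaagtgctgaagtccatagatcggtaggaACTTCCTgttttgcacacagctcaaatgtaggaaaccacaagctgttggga
Cd68, chr11:69666171-69666420: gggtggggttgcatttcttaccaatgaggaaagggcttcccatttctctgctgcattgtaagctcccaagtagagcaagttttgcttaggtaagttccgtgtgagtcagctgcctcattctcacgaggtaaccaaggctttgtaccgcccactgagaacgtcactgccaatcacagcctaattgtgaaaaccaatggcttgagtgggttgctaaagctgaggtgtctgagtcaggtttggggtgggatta

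The motif was present in 5 of the 6 full windows of the 5 matched genes (*C1qb*, *C1qc*, *Lyz2* and *Ptprc*, not *Cd68*), and in 7.686% of all 32851 windows of 250 bases. It was chosen after these sequences had been seen, so the count is a description and not a test. The windows of *Ptprc* lie inside its gencode gene and are not shown. They overlap and share a site, so by gene the motif was present in 4 of 5. *C1qa*, *Cd52*, *Csf1r* and *Adgre1* were not among the matched windows, so the sequences do not bear on how *C1qa* differed from *C1qb* and *C1qc*.

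The non-beta fraction carried every one of the 9 genes in all 3 mice, and in the beta fractions 8 of the 9 were close to or at 0 while *C1qa* was not. *C1qb*, the B chain of C1q, stood at 133, 67.8 and 99.4 CPM in the non-beta libraries of mice 1, 2 and 3. In the labelled NNAT-positive libraries of mice 1 to 4 it had 14, 18, 14 and 9 counts, and in the labelled NNAT-negative libraries 0, 0, 22 and 18 counts. *C1qc*, the C chain, stood at 105, 46.0 and 66.9 CPM in non-beta cells, against 26, 4, 10 and 12 counts in the labelled NNAT-positive and 0, 0, 6 and 18 counts in the labelled NNAT-negative libraries. Neither gene overlapped between non-beta and beta libraries. The share of all tested genes without such an overlap was not counted, here or for the other genes. In both *C1qb* and *C1qc* the labelled NNAT-negative libraries of mice 1 and 2 held no count.

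*C1qa*, the A chain, gave a different picture. It stood at 180, 101 and 139 CPM in the non-beta libraries of mice 1, 2 and 3, on 8322, 3810 and 5158 counts. In the labelled NNAT-positive libraries of mice 1 to 4 it stood at 71.7, 61.2, 44.2 and 45.9 CPM, on 2553, 2551, 1688 and 2011 counts. In the labelled NNAT-negative libraries it stood at 65.8, 74.7, 47.2 and 52.9 CPM, on 1930, 2455, 1703 and 1937 counts. The non-beta libraries were all above the beta libraries, with the lowest non-beta value at 101 CPM and the highest beta value at 74.7 CPM. Among the beta libraries, the 4 of mice 1 and 2 lay between 61.2 and 74.7 CPM and the 4 of mice 3 and 4 between 44.2 and 52.9 CPM. The labelled NNAT-negative library of mouse 2 had the highest *C1qa* level of the 8 and 0 counts over the other 8 genes together.

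**Figure D1:**
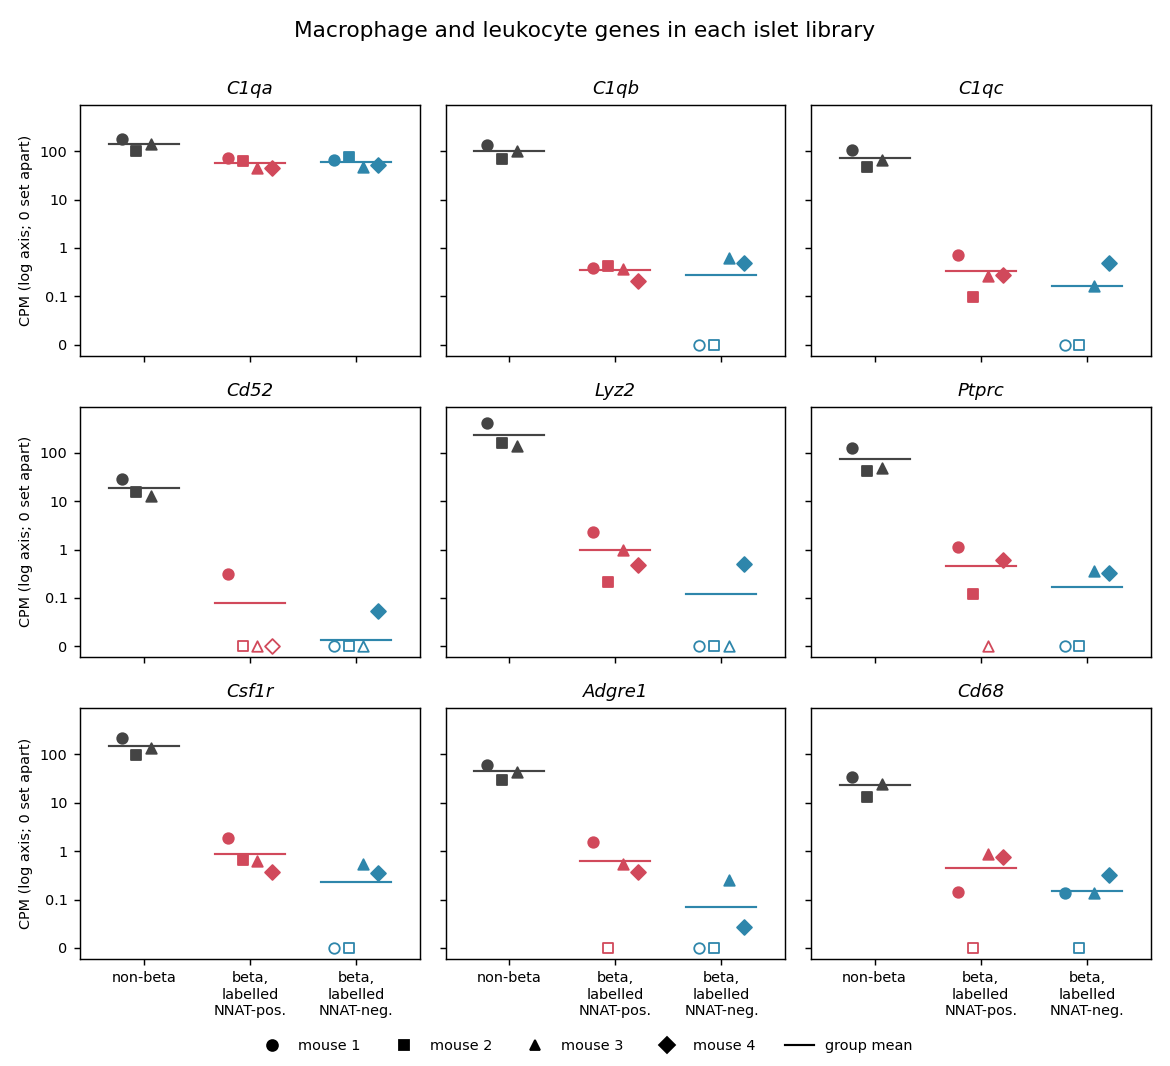
CPM of each gene (log axis, open symbols at the bottom for libraries with 0 counts) in the 3 non-beta, 4 labelled NNAT-positive and 4 labelled NNAT-negative libraries; symbols give the mouse and lines the group mean. For 8 genes the beta libraries lie at or below 2.30 CPM and the non-beta libraries at or above 13 CPM, while *C1qa* lies between 44.2 and 74.7 CPM in the beta libraries.

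The receptors and surface proteins followed *C1qb* and *C1qc*. *Csf1r* stood at 219, 98.7 and 134 CPM in the non-beta libraries of mice 1, 2 and 3. It had 68, 28, 24 and 16 counts in the labelled NNAT-positive libraries and 0, 0, 20 and 13 in the labelled NNAT-negative libraries. Within each of the 4 mice its CPM was higher in the labelled NNAT-positive library than in the labelled NNAT-negative one. *Adgre1* stood at 60.8, 29.0 and 43.9 CPM in non-beta cells. It had 56, 0, 21 and 16 counts in the labelled NNAT-positive and 0, 0, 9 and 1 in the labelled NNAT-negative libraries. Both receptors were thus at 0 in the same labelled NNAT-negative libraries, those of mice 1 and 2. *Ptprc*, the marker of leukocytes in general, stood at 128, 42.7 and 48.4 CPM in non-beta cells, and the library of mouse 1 was well above those of mice 2 and 3. It had 40, 5, 0 and 27 counts in the labelled NNAT-positive and 0, 0, 13 and 12 in the labelled NNAT-negative libraries. *Cd52* stood at 28.2, 15.6 and 13 CPM in non-beta cells, and of the 8 beta libraries it had counts in 2, with 11 in the labelled NNAT-positive library of mouse 1 and 2 in the labelled NNAT-negative library of mouse 4.

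The genes of lysosome and granule, *Lyz2* and *Cd68*, showed the same split. *Lyz2* stood at 408, 161 and 135 CPM in the non-beta libraries of mice 1, 2 and 3. It had 82, 9, 38 and 21 counts in the labelled NNAT-positive libraries and 0, 0, 0 and 18 in the labelled NNAT-negative ones. *Cd68* stood at 34.2, 13 and 23.9 CPM in non-beta cells. It had 5, 0, 33 and 33 counts in the labelled NNAT-positive and 4, 0, 5 and 12 in the labelled NNAT-negative libraries. Among the labelled NNAT-positive libraries *Cd68* was highest in mice 3 and 4, while *C1qc*, *Cd52*, *Lyz2*, *Ptprc*, *Csf1r* and *Adgre1* were highest in mouse 1 and *C1qb* in mouse 2. A value of 0 allows a level of up to the floor of 3 counts, and these limits cover counting error only.

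Over the 8 genes other than *C1qa*, 23 of the 64 values in beta libraries were 0, of which 6 were among the 32 values labelled NNAT-positive and 17 among the 32 labelled NNAT-negative. Together the 8 genes had 302, 64, 140 and 134 counts in the labelled NNAT-positive libraries of mice 1 to 4 and 4, 0, 75 and 94 in the labelled NNAT-negative libraries. In the non-beta libraries they had 51676, 17881 and 21014 counts. Scaled to depth, their summed level was 1116, 473 and 565 CPM in the non-beta libraries of mice 1, 2 and 3, and 0 to 8.48 CPM in the beta libraries. In mice 1 to 3, this sum in the labelled NNAT-positive library was 0.577% ± 0.226 (SD, n = 3) of that in the non-beta library of the same mouse, and in the labelled NNAT-negative library 0.127% ± 0.209 (SD, n = 3). The latter rested on mouse 3, at 0.368% against 0.0122% and 0% in mice 1 and 2, and without it the mean was 0.0061%. For *C1qa* the same percentages were 44.1% ± 14.8 and 48.2% ± 22.4 (SD, n = 3 each). In bulk libraries a smaller number of cells of one type and less RNA in each cell cannot be told apart.

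In the fit across all 17424 tested genes, 9 of 9 genes were called higher in non-beta cells than in the labelled NNAT-positive fraction (edgeR quasi-likelihood test, a *p* under 0.01 after Benjamini-Hochberg adjustment and over 2-fold), where 15.5% of all tested genes were called in that direction. Against the labelled NNAT-negative fraction 9 of 9 were called, with a background of 17.1%. The median log2 fold change of the 9 genes was 7.72 against the labelled NNAT-positive and 9.02 against the labelled NNAT-negative fraction, while over all tested genes the medians were 0.06 and 0.13. These comparisons share the non-beta libraries. The filter took in all 3 fractions, and with the 2 beta fractions alone 5 of the 9 genes passed it. Genes could thus be tested through their level in non-beta cells, so the counts of calls here and for the lists are descriptions. *C1qa* had the smallest change of the 9, which on the log2 scale was 1.27 (SE 0.179, adjusted *p* = 0.000217) against the labelled NNAT-positive and 1.15 (SE 0.180, adjusted *p* = 0.000437) against the labelled NNAT-negative fraction. The call against the labelled NNAT-negative fraction rested on mouse 3, since without that mouse the change was 0.93 and no longer above 2-fold, and without its non-beta library alone it was also 0.93.

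For the other 8 genes the log2 fold changes were between 6.30 and 8.27 against the labelled NNAT-positive and between 8.13 and 10.71 against the labelled NNAT-negative fraction. *C1qb* differed by 8.16 (SE 0.556, adjusted *p* = 1.56e-06) and 8.44 (SE 0.590, adjusted *p* = 1.61e-06). *Lyz2* differed by 7.97 (SE 0.536, adjusted *p* = 1.43e-06) and 10.71 (SE 0.668, adjusted *p* = 7.8e-07), and *Adgre1* by 6.30 (SE 0.696, adjusted *p* = 4.19e-05) against the labelled NNAT-positive fraction. The order of the 8 genes changed between alternative fits, and fitted values of genes with so few counts depend on a small number of reads. Without mouse 4, which held all 18 counts of *Lyz2* in the labelled NNAT-negative fraction, the fitted value of *Lyz2* was 16.07, and without mouse 1, which held all 11 counts of *Cd52* in the labelled NNAT-positive fraction, that of *Cd52* went from 8.27 to 13.93. Pooled over libraries, *Csf1r* was 182-fold higher in non-beta cells than in the labelled NNAT-positive fraction (95% counting interval 154 to 217, 136 counts) and 635-fold higher than in the labelled NNAT-negative fraction (452 to 923, 33 counts). Without the labelled NNAT-positive library of mouse 1 the first ratio was 283, and without the labelled NNAT-negative library of mouse 3 the second was 1181, so these intervals do not cover the spread between mice. *Cd52* had 2 counts in the labelled NNAT-negative fraction as a whole, so that its pooled ratio of 1323 had an interval of 366 to 10934.

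Among the 2697 genes called higher in non-beta cells than in the labelled NNAT-positive fraction, the median log2 fold change was 5.23, and 8.05% of them had a smaller change than *C1qa*. The other 8 genes were all above that median. Against the labelled NNAT-negative fraction, 2980 genes were called, the median was 5.79 and 3.89% had a smaller change than *C1qa*. By mean level over the 8 beta libraries, *C1qa* at 57.9 CPM stood above 82.1% of the tested genes, whereas the other 8 genes stood above 5.74% (*Cd52*) to 22.8% (*Lyz2* and *Csf1r*).

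**Figure D2:**
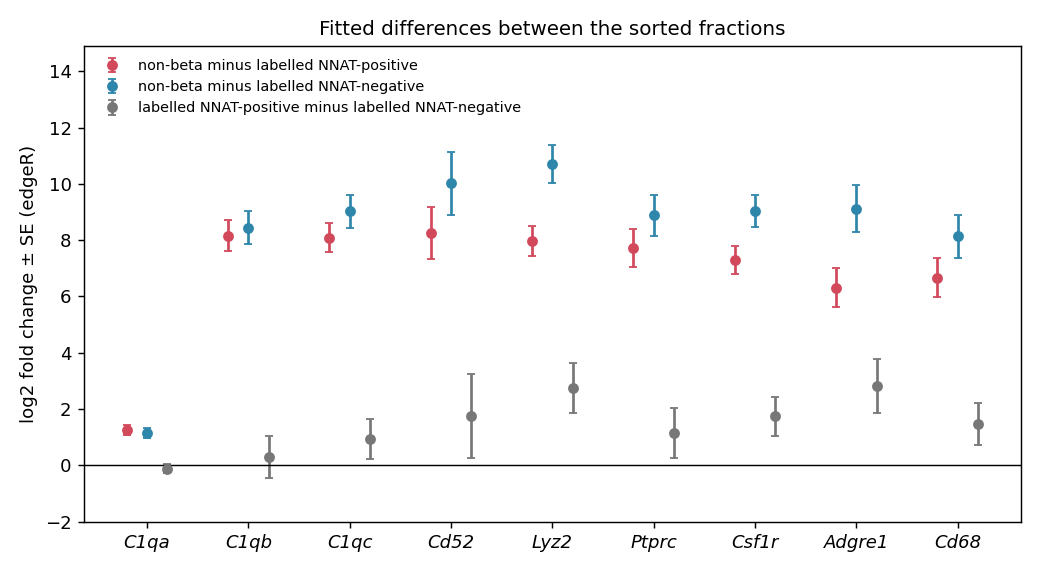
Log2 fold changes (points) with SE (bars) from the edgeR fit for each gene, for non-beta minus each beta fraction and for the labelled NNAT-positive minus the labelled NNAT-negative fraction. In the comparisons with non-beta cells *C1qa* lies at 1.27 and 1.15 and the other 8 genes lie between 6.30 and 10.71.

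The composition of C1q counts shows the same difference within each library, without reference to depth. In the non-beta libraries *C1qa* gave 43%, 47.0% and 45.4% of the counts of the 3 C1q genes in mice 1, 2 and 3, on 19357, 8110 and 11349 counts. In the labelled NNAT-positive libraries of mice 1 to 4 it gave 98.5%, 99.1%, 98.6% and 99.0%, on 2593, 2573, 1712 and 2032 counts. In the labelled NNAT-negative libraries it gave 100%, 100%, 98.4% and 98.2%, on 1930, 2455, 1731 and 1973 counts. The lowest bound of the 95% Clopper-Pearson intervals in a beta library was 97.5%, and the highest bound in a non-beta library was 48.1%. Means were 45.1% ± 2.01 (SD, n = 3) in non-beta cells, 98.8% ± 0.319 (SD, n = 4) in the labelled NNAT-positive and 99.1% ± 0.997 (SD, n = 4) in the labelled NNAT-negative fraction. Within non-beta cells the ratio of *C1qa* to *C1qb* counts was 1.35, 1.49 and 1.39, and that of *C1qb* to *C1qc* was 1.27, 1.47 and 1.49.

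**Figure D3:**
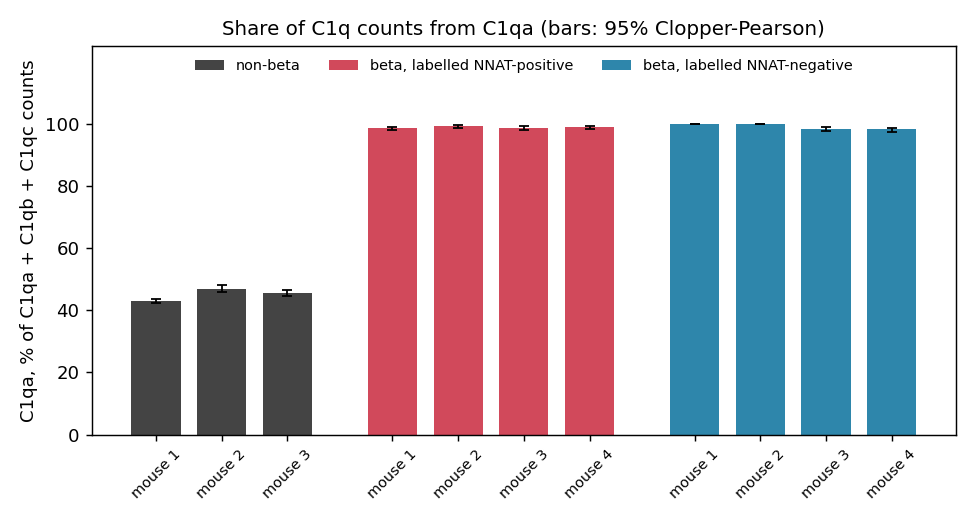
Counts of *C1qa* as a percentage of the counts of *C1qa*, *C1qb* and *C1qc* together in each of the 11 libraries, with 95% Clopper-Pearson intervals that cover counting error. The non-beta libraries lie between 43% and 47.0% and the beta libraries between 98.2% and 100%.

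Several features of the locus were measured beside this. In gencode release 21 no annotated gene overlapped *C1qa*. The next protein-coding gene upstream, *Epha8*, a receptor tyrosine kinase gene on the same strand, lay 30615 bases away and had 1.06 to 4.53 CPM over the 11 libraries. Noncoding genes in between were not looked at. Of the 966 stretches of 75 bases in the *C1qa* transcript, 0 occurred in a transcript of another gene, 75 bases being the read length. The longest run shared by *C1qa* with *C1qb* was 12 bases and with *C1qc* 11 bases. Where along *C1qa* the beta cell reads lie could not be seen in counts per gene. In the beta libraries the 8 other genes were at 0 to 8.48 CPM in sum and *C1qa* at 44.2 to 74.7 CPM. The part that leukocytes within the beta gates play in the *C1qa* counts was not tested.

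Other genes of the set are less well separated from their neighbours. *Csf1r* (chromosome 18, 61100598 to 61132149) shares 873 exonic bases with *Hmgxb3* on the opposite strand, and whether the counting used the strand is not given in the sources used here. *Hmgxb3* had 37.2 to 50.2 CPM in the beta libraries, among them the 2 with 0 counts of *Csf1r*. *Cd52* (chromosome 4, 134082448 to 134095082) shares 172 exonic bases with *Crybg2*. *Lyz2* (chromosome 10, 117277331 to 117282321) shares 74 of its 1242 stretches of 75 bases with its paralogue *Lyz1*. How reads from such shared stretches were counted was not examined. *Lyz1* had 31.4, 13.9 and 7.31 CPM in non-beta cells, and 25 counts in the labelled NNAT-positive library of mouse 1 were its total over the 8 beta libraries. *Ptprc* (chromosome 1, 138062861 to 138175708), *Adgre1* (chromosome 17, 57358691 to 57483527) and *Cd68* (chromosome 11, 69664213 to 69666153) shared no exonic base with another gene.

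Between the beta fractions, 0 of the 9 genes were called by the same rule, where 0.0459% of the tested genes were called higher and 0% lower in the labelled NNAT-positive fraction. At an unadjusted *p* under 0.05, 3 of the 9 genes were higher in the labelled NNAT-positive fraction, and over all tested genes 839 were higher and 130 lower. With DESeq2 0 of the 9 were called and 2 had an unadjusted *p* under 0.05. *Lyz2* differed by 2.74 on the log2 scale (SE 0.882, edgeR adjusted *p* = 0.632), *Adgre1* by 2.82 (SE 0.969, adjusted *p* = 0.714) and *Csf1r* by 1.74 (SE 0.693, adjusted *p* = 0.834). The value of *Lyz2* was 5.73 with DESeq2 (adjusted *p* = 0.0242, above the threshold of 0.01), and in edgeR 8.31 without mouse 4 (adjusted *p* = 0.181), while *Adgre1* went to 5.28 without mouse 3 (adjusted *p* = 0.653). *Csf1r* was higher in the labelled NNAT-positive library in 4 of 4 mice, *Lyz2* in 3 of 4, and *Adgre1* in 3 with a tie at 0 in mouse 2. *C1qa* differed by -0.13 (SE 0.161, adjusted *p* = 0.968) and was lower in the labelled NNAT-positive library in 3 of 4 mice.

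The fitted change was above 0 for 8 of the 9 genes, with a median of 1.47 against 0.05 over all tested genes. This rested on mouse 1. That mouse's labelled NNAT-positive library held 302 of the 640 counts of the 8 genes in that fraction, and without the mouse 4 of 9 genes were above 0, the median was -0.01 and 0 had an unadjusted *p* under 0.05. The libraries with the fewest counts of the 8 genes other than *C1qa*, labelled NNAT-negative in mice 1 and 2, were those with the fewest genes detected. Markers of other non-beta cells also differed between the beta fractions. Alpha cell markers summed to 2203 to 3507 CPM in the labelled NNAT-positive and 1043 to 1909 CPM in the labelled NNAT-negative libraries, while 0 of 4 were called. Delta cell markers summed to 1402 to 2488 and 543 to 1046 CPM, with *Rbp4* called. Gamma cell markers *Ppy* and *Pyy* were both called and summed to 299 to 421 and 89.0 to 159 CPM. The part of these cells in the values of the 9 genes was not tested.

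Per kilobase of exon, the order of the genes in non-beta cells was *Lyz2*, *C1qa*, *C1qb*, *C1qc*, *Csf1r*, *Cd68*, *Cd52*, *Adgre1* and *Ptprc*. The means were 178 ± 114, 134 ± 37.9 and 92.1 ± 30.1 CPM per kilobase (SD, n = 3) for *Lyz2*, *C1qa* and *C1qb*. They were 37.6 ± 15.5 for *C1qc*, 26.1 ± 10.7 for *Csf1r*, 18.8 ± 8.46 for *Cd68*, 16.0 ± 6.83 for *Cd52*, 13.8 ± 4.91 for *Adgre1* and 3.99 ± 2.61 for *Ptprc*. Neighbours in this order overlapped in their ranges except *C1qb* above *C1qc* and *Adgre1* above *Ptprc*. Within mice, *C1qa* was above *C1qb*, *C1qb* above *C1qc* and *C1qc* above *Csf1r* in 3 of 3, whereas *Lyz2* was above *C1qa* in mice 1 and 2 and below it in mouse 3. In the beta fractions *C1qa* led, at 53.6 and 57.9 CPM per kilobase in the labelled NNAT-positive and NNAT-negative fractions, and the other 8 genes were at or below 0.758.

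The non-beta libraries did not carry equal amounts. Mouse 1 had the highest level of all 9 genes, from 1.5-fold (*C1qa*) to 2.81-fold (*Ptprc*) over the mean of mice 2 and 3, where 35.7% of the 14556 tested genes with at least 1 CPM were highest in mouse 1 and the median ratio was 0.989. The genes did not move in step. *Lyz2* was 1.86 times *Csf1r* in mouse 1 by counts, 1.63 times in mouse 2 and 1.01 times in mouse 3. *Ptprc* was 0.586, 0.433 and 0.361 times *Csf1r*, while *Adgre1* was 0.278, 0.294 and 0.327 times *Csf1r*. Mouse 1 thus had more *Ptprc* and *Lyz2* against the macrophage receptors than mouse 3.

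Markers of other leukocytes differed between the same libraries. B cell markers summed to 2694 CPM in mouse 1, 1071 in mouse 2 and 94.8 in mouse 3, and *Ighm*, the heavy chain of IgM, gave most of it at 2611, 1038 and 86.9 CPM. T cell markers summed to 28.8, 13.7 and 8.55 CPM, with *Cd3e*, part of the T cell receptor complex, at 2.20, 1.22 and 0.97 CPM. Neutrophil markers were near 0, and *S100a8* was at 0.12 CPM on average. Of 16 leukocyte-related lists, 14 were highest in mouse 1. Of 10 lists for other cells, that of mesenchymal cells was highest in mouse 1 (8966, 3913 and 4910 CPM), while acinar markers summed to 17836, 67163 and 54823 CPM. The part of B cells or of exocrine tissue in the levels of the 9 genes was not tested.

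**Figure D4:**
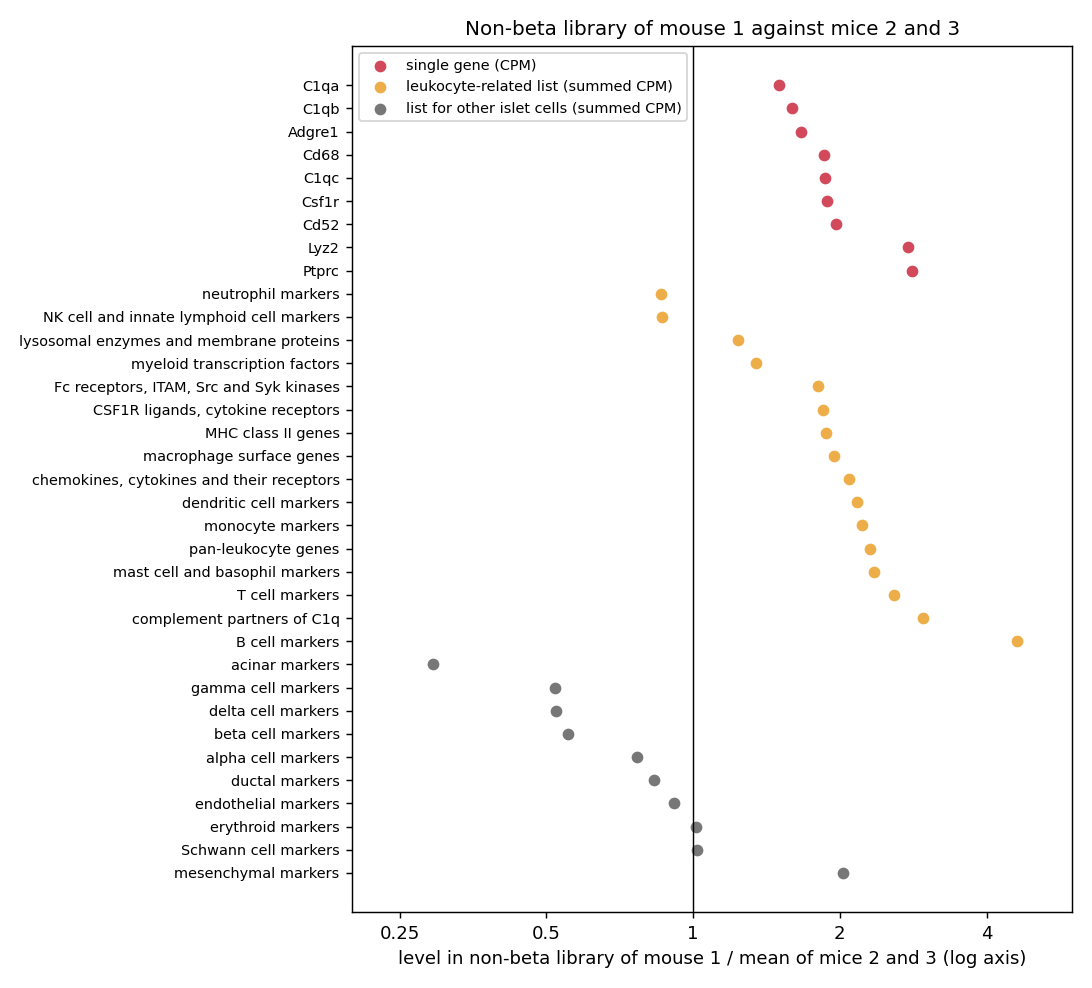
Level in the non-beta library of mouse 1 divided by the mean of mice 2 and 3 (log axis), for the CPM of each of the 9 genes and for the summed CPM of the marker lists; a ratio of 1 is marked by a line. The 9 genes lie between 1.5 and 2.81, B cell markers at 4.62 and acinar markers at 0.292.

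Other genes of macrophages and their signalling gave the setting of the 9. Of 22 macrophage surface genes, 21 were tested and 21 were called higher in non-beta cells than in each beta fraction. With genes at 0 in a whole beta fraction set to their floor, the median log2 fold change was 7.48 against the labelled NNAT-positive and 8.76 against the labelled NNAT-negative fraction. *Mpeg1*, a pore-forming protein of phagocytes, stood at 299, 177 and 207 CPM in non-beta cells and at 0 to 2.05 CPM in beta libraries. *Axl*, a receptor for apoptotic cells, stood at 303, 156 and 199 CPM, the mannose receptor gene *Mrc1* at 160, 50.7 and 68.4 CPM and the integrin gene *Itgax* at 53.6, 31.4 and 31.7 CPM. *Lyve1* was the exception in its level, with 8.23 to 15.8 CPM in the beta libraries and log2 fold changes of 1.23 and 1.40. It was named after its values were seen.

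Ligands and cytokine receptors were more mixed. Of 8 tested genes, 7 were called higher in non-beta cells than in each beta fraction. *Csf1*, the ligand of the CSF1 receptor, stood at 67.4, 39.0 and 41.7 CPM in non-beta cells, and at 11.4 to 17.7 CPM in the labelled NNAT-positive and 9.64 to 18.8 CPM in the labelled NNAT-negative libraries. Its log2 fold changes were 1.54 (SE 0.142, adjusted *p* = 1.2e-05) and 1.72 (SE 0.142, adjusted *p* = 5.05e-06), so beta libraries held the ligand where they held almost no receptor. *Il34*, the other ligand, stood at 14.4, 9.72 and 5.99 CPM in non-beta cells and had counts in 1 of the 8 beta libraries, at 0.157 CPM. *Csf2ra*, a chain of the GM-CSF receptor, was high in mouse 4, at 42.5 and 34.6 CPM in its beta libraries against 5.89 to 8.79 CPM in the other 6. Its means were 14.8 CPM in non-beta cells and 15.8 CPM in the labelled NNAT-positive fraction, while the fit with the mouse as a block, which sets non-beta against beta cells within mice 1 to 3, gave 1.02 (SE 0.248, adjusted *p* = 0.00674).

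Of 11 tested myeloid transcription factors, 9 were called higher in non-beta cells than in each beta fraction. *Spi1*, which encodes PU.1, stood at 25.5, 11.2 and 11.7 CPM in non-beta cells and at 0 to 0.17 CPM in beta libraries. *Irf8* stood at 71.4, 32.8 and 26.6 CPM, and *Maf* at 69.5, 28.9 and 28.7 CPM. *Cebpb* stood at 65.0, 26.2 and 30.3 CPM in non-beta and 12.1 to 19.6 CPM in beta libraries.

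Among 16 tested partners of C1q in complement, 13 were called higher in non-beta cells against each beta fraction. The proteases that join C1q, encoded by *C1ra* and *C1s1*, stood at 38.6 to 109 and 116 to 271 CPM in non-beta cells and at 0 to 1.26 and 0 to 0.14 CPM in beta libraries. *C3*, the central component, stood at 3097, 1202 and 600 CPM and *C4b* at 422, 131 and 147 CPM, against 4.16 to 8.66 and 0 to 0.31 CPM in beta libraries. *Serping1*, the inhibitor of C1r and C1s, stood at 528, 271 and 271 CPM in non-beta cells and at 13.3 to 27.1 CPM in beta libraries. *Cd59a*, an inhibitor of the terminal complex, was not called and stood at 28.4 to 30.6 CPM in non-beta and 15.5 to 38.3 CPM in beta libraries.

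Receptors and kinases of phagocytosis were called in 14 of 18 tested genes against the labelled NNAT-positive and 16 of 18 against the labelled NNAT-negative fraction. *Tyrobp*, an adaptor of myeloid receptors, stood at 28.2, 14.5 and 19.3 CPM in non-beta cells and at 0 to 0.33 CPM in beta libraries. *Fcer1g*, a related adaptor, kept 1.16 to 4.46 CPM in beta libraries, and *Ptpn6*, a phosphatase, did not pass the test and stood at 26.2 to 52.1 CPM in non-beta and 29.5 to 40.8 CPM in beta libraries. Lysosomal genes were called in 8 and 9 of 18, with a median of 0.94 and 0.92. *Ctss*, a cathepsin of antigen-presenting cells, had log2 fold changes of 8.75 and 8.78, whereas *Lamp1*, a membrane protein of lysosomes in most cells, was fitted lower in non-beta cells by less than 2-fold (-0.56, SE 0.099, adjusted *p* = 0.000951, and -0.60 against the other fraction). *Cd68* among the 9 genes had log2 fold changes of 6.66 and 8.13.

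All 7 tested MHC class II genes were called against each beta fraction, and *Cd74*, the invariant chain, stood at 1556, 715 and 939 CPM in non-beta cells and at 0 to 11.3 CPM in beta libraries. Pan-leukocyte genes were called in 17 and 16 of 20. *Cd44*, an adhesion receptor that is also made by other cells, was not called and stood at 97.6 and 94.4 CPM in the beta libraries of mouse 3, against 25.9 to 42.4 CPM in the other 6. Chemokines, cytokines and their receptors were called in 17 and 15 of 23, with *Ccr2*, a chemokine receptor of monocytes, at 64.5, 27.1 and 26.6 CPM in non-beta cells. All 8 tested dendritic cell markers were called against each beta fraction, as were 5 of 6 monocyte markers. Of the monocyte markers *Fn1* had the highest mean in non-beta cells, at 422 CPM. The part of mesenchymal cells in its level was not tested. Of 5 tested mast cell markers 3 and 4 were called, of 8 B cell markers 5 and 4, and of 8 T cell markers 1 and 3. Of 4 tested markers of NK and innate lymphoid cells 0 and 2 were called, and of 1 tested neutrophil marker 0 and 0. Between the beta fractions 0 of 180 tested genes of the 16 leukocyte-related lists were called (edgeR), at the background given above.

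Across libraries the gene nearest in pattern to the summed level of the 9 was *Tmsb4x*, which encodes an actin-binding thymosin (Pearson *r* = 0.998 over 11 libraries, of 14547 genes with at least 1 CPM in non-beta cells), at means of 666 CPM in non-beta and 135 CPM in beta libraries. *Gpnmb*, *Trim30d*, *Steap3*, *Adamts2*, *Tpm2*, *Gpr34*, *Acta2*, *Fmod* and *Vgll4* followed, with *r* from 0.991 to 0.994, and these 11 points share the split between non-beta and beta cells. Over the 8 beta libraries, where the sum is nearly all *C1qa*, the nearest were *Vgll4* (*r* = 0.948), *Eif5al3-ps*, *Scg5*, *Asl*, *Acyp1*, *Hnmt*, *Lrrc42*, *Eno2*, *Bckdhb* and *Tmsb4x* (*r* = 0.905). Several of these, such as *Scg5*, which encodes a chaperone of prohormone convertase, were as high in beta as in non-beta libraries, at means of 1047 and 844 CPM. Within the 8 beta libraries, each of the other 8 genes had an *r* of 0.467 to 0.926 with the sum of the rest of that 8, and *C1qa* had an *r* of -0.519 with it. These 8 points are 4 mice in 2 fractions each, the counts are sparse, and the values describe these libraries.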

How the data were processed

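RNA-seq had been done on 11 libraries of sorted islet cells, made from 20 ng of poly(A)-selected RNA and sequenced as paired reads of 75 bases. The authors aligned them with STAR 2.7.1a to mm10, counted reads per gencode vM25 gene with STAR and deposited raw counts, which are whole numbers. Whether the counting used the strand is not given in the sources used here. Of the rows, 202 carried no gene symbol and were kept under their identifiers. The authors used DESeq2 1.32.0, and their columns of comparisons were not used.

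Counts were tested in R 4.3.3 with edgeR 4.0.16 (glmQLFit and glmQLFTest, TMM, filterByExpr by fraction), with all 11 libraries in 1 fit and the mouse as a block. The study's thresholds defined a call, a false discovery rate (Benjamini-Hochberg over 17424 tested genes) under 0.01 with over 2-fold change. Each log2 fold change over the root of its *F* statistic gave the SE. Library sizes scaled by TMM entered CPM, with a prior count of 2 in log2 CPM for correlations, and merged exon lengths entered levels per kilobase. Intervals were exact Poisson or Clopper-Pearson intervals at 95% and cover counting error only, at totals of 30420352 to 43238376 counts. Gene positions, lengths and shared 75-base stretches came from gencode vM21 (GRCm38), in which 55141 of the 55401 identifiers were found. Promoters were those of RefSeq. The pairing of libraries came from the study's methods, where a replicate is a mouse, and same-mouse beta libraries deviated together (mean *r* = 0.314 over 4 pairs, against -0.103 over 12 pairs of different mice). Beta and non-beta libraries of a mouse did so less (mean *r* = 0.083 over 6 pairs, from 0.032 to 0.125, against -0.028 over 18 pairs of different mice).

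The 9 genes, the lists and the tests were chosen with earlier results of these data known. Besides the 9 genes, the text names the 4 genes of each list with the highest mean in non-beta cells where they matter, the 10 genes most like the summed level, and *Nnat*. *Lyve1*, *Il34*, *Spi1*, *Tyrobp*, *Fcer1g*, *Ctss*, *C1ra*, *Cd59a* and the neighbours of the 9 genes were named after their values were seen. Alternatives were RLE size factors, library size alone, no filter, no block, the 2 groups compared alone, DESeq2 1.42.0, another threshold and leaving out each mouse or non-beta library, and leaving *C1qa* out of sums, or single libraries out of pooled ratios and percentages, was added after seeing the data. The edgeR test was tested on simulated counts for the comparison of the beta fractions. Of 100 genes changed 4-fold 57 were recovered, and of 100 changed 2-fold 27, at an adjusted *p* under 0.01 without the fold rule. In each set 91 genes passed the filter, and there were 0 false calls among 16088 genes. The changed genes were drawn over all levels, and the simulated beta means did not differ between mice. These rates thus do not describe genes near 0 in beta libraries, or data with differences between mice.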

Additional observations from a re-analysis of the deposited data

Results flagged for a closer look

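In groups of 4 libraries, 76 in all, 12 had 1 value far from the others by Dixon's ratio of gap to range. Chance gives about 1 in 20 for independent values with a normal spread. Some flagged groups were at 0 in every other library, where the ratio is 1 by construction, and others shared a mouse. The share of 1 in 20 therefore does not apply here. Among the 9 genes, *Cd52* stood at 0.309 CPM in the labelled NNAT-positive library of mouse 1 and at 0.0546 CPM in the labelled NNAT-negative library of mouse 4, with 0 in the other 3 libraries of each group. *Lyz2* stood at 0.492 CPM in the labelled NNAT-negative library of mouse 4 against 0 in the other 3, and *Adgre1* at 0.25 CPM in that of mouse 3 against at most 0.0273. These values rest on 11 and 2 counts of *Cd52*, 18 of *Lyz2* and 9 of *Adgre1*.

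Among the lists, macrophage surface genes summed to 10.4 CPM in the labelled NNAT-negative library of mouse 4, the lowest of its group, against 12.4 in the nearest. CSF1 receptor ligands and related cytokine receptors summed to 63.6 CPM in the labelled NNAT-positive library of mouse 4, with *Csf2ra* at 42.5 CPM. Lysosomal genes were lowest in both beta libraries of mouse 4, at 2918 CPM in the labelled NNAT-positive and 3046 CPM in the labelled NNAT-negative library, against at least 4549 and 4591. Pan-leukocyte genes were highest in both beta libraries of mouse 3, at 103 and 98.8 CPM, with *Cd44* at 97.6 and 94.4 CPM. Acinar markers summed to 2416 CPM in the labelled NNAT-positive library of mouse 2 against at most 193 in the other 3, and erythroid markers to 0.0554 CPM in the labelled NNAT-negative library of mouse 3 against 0.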

How the results depend on the processing

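For the 9 genes against each beta fraction, the direction was kept under every alternative run, and 232 single values also kept their call while 2 did not. These were *C1qa* against the labelled NNAT-negative fraction without mouse 3 (0.93, adjusted *p* = 0.00787) and without its non-beta library (0.93, adjusted *p* = 0.00225). Between the beta fractions 0 of 9 genes were called under each of 11 alternatives, though with the 2 fractions alone 5 of the 9 passed the filter. Fitted changes turned negative without mouse 1 for *C1qb* (-0.12), *C1qc* (-0.012), *Cd52* (-2.73) and *Ptprc* (-0.051), and without mouse 2 for *C1qb* (-0.31). Over all mice left out in turn, these went from -0.31 to 1.02, -0.012 to 2.36, -2.73 to 4.65 and -0.051 to 2.32. Over all tested genes 8 differed between the beta fractions, 26 with no filter, 86 with DESeq2, 14 at an adjusted *p* below 0.05, and 0 to 5 when a mouse was left out. Without the replicate block it was 1, while the block changed no call of the 9 genes. Scaling by library size alone moved the median of all genes from 0.06 to 0.22 and from 0.13 to 0.31 in the comparisons with non-beta cells, and *C1qa* then stood at 1.43 and 1.34. With *C1qa* left out, the sum of the 9 genes fell from 59.9 to 4.18 CPM in the labelled NNAT-positive and from 61.4 to 1.2 CPM in the labelled NNAT-negative fraction, and as a share of non-beta cells from 7.97% to 0.577% and from 8.37% to 0.127%. The causes were not tested. Depth limited the 8 low genes, of which 25 of 64 beta values were at or under 3 counts.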

Other observations

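Over the 8 beta libraries, the genes whose level lay nearest to the sum of the 8 genes without *C1qa* (a choice made after seeing the data) were *Jmy* (Pearson *r* = 0.982), *Bcl2* (*r* = 0.978) and *Tgfbr2* (*r* = 0.975), of 14547 genes compared. *Bcl2*, an inhibitor of apoptosis, and *Tgfbr2*, a receptor of TGF-beta, had means of 30.5 and 130 CPM in non-beta and 1.67 and 0.393 CPM in beta libraries, whereas *Jmy* had 46.7 and 49.3 CPM. None of these was among the 10 nearest when *C1qa* was in the sum. The 8 points are 4 mice in 2 fractions each, so these values describe the libraries.

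Of the genes near the C1q locus, *Ephb2* stood at 19.1 to 20.6 CPM in non-beta and 2.65 to 6.29 CPM in beta libraries, and *Zbtb40* at 15.1 to 21.4 CPM in non-beta and 30.4 to 58.4 CPM in beta libraries. The level of *C1qa* was 42.5 to 71.8 CPM per kilobase of exon in beta and 97.0 to 173 CPM per kilobase of exon in non-beta libraries.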
